A study of Mus musculus with 48 samples.

Results

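The sWAT libraries compared here are the 4 labelled TAN 8 AM and the 4 labelled TAN 4 AM, 8 of the 48 RNA-seq libraries of the series, and they were chosen by the diet and time on their labels. All came from C57BL/6 mice (C57BL/6J in the study's methods) aged 8 months fed in 2 windows a night (TAN), from 9 to 11 PM and from 5 to 7 AM, within a dark phase from 8 PM to 8 AM. By the labels the pair therefore spans the second meal, with 4 AM before it and 8 AM after it. The other groups hold TAN mice at the remaining times and ad-lib mice of the same strain and age, with 4 libraries for each of the 2 diets at each of 6 times. The labels name the inguinal depot, and the series text calls the material a stromal vascular fraction whereas the study's methods describe whole sWAT. The labels do not tie animals that carry the same number at different times, so p-values measure the spread between libraries only.

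The times have 2 readings. The labels and the count table give 8 AM and 4 AM, but supplementary tables of the study list the expression of the same animals under other hours. Over 963 genes, each of the 8 libraries matched best the entry that bears its animal's name at a time 12 h away (log2 values differed on average by 0.000145 to 0.000849, and by 0.165 to 0.22 from the runner-up), and 0 of the 48 libraries matched an entry at the same hour. In that second reading the comparison is of 8 PM against 4 PM, within the daytime fast and before the first meal. Every value below belongs to the same 8 libraries under either reading, and the names 8 AM and 4 AM are those of the count table.

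White adipose tissue switches between storing and releasing fat with each meal. Insulin restrains lipolysis and the FoxO-driven fasting genes, favours triglyceride storage and raises leptin, and the SREBP factors raise cholesterol synthesis and uptake. Clock genes follow a daily course set by light and by feeding time, with Arntl (BMAL1) and Nr1d1 (REV-ERBα) at opposite phases.

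The 8 AM libraries held between 15685080 and 18443146 counts and the 4 AM libraries between 17612576 and 21830152, within the range of the other libraries (15636378 to 29913310). Fewer genes had a count at 8 AM (20483 to 21584) than at 4 AM (21764 to 22425), with no overlap, and mitochondrially encoded genes took 4.75% to 7.02% and 4.79% to 7.45% of counts. Adipocyte markers were abundant in all 8 libraries, with a summed level of 27573 to 33569 CPM at 8 AM and 29911 to 40533 CPM at 4 AM. CPM values are counts scaled to library size with TMM factors.

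Heatr3 was among the genes higher and Etfbkmt was lower at 8 AM than at 4 AM when all 48 libraries were fitted together by edgeR's quasi-likelihood test, the main test, which called 2 genes higher and 1 lower. This is 0.01% of 19977 tested genes called higher and 0.00501% called lower at a Benjamini-Hochberg adjusted p under 0.05. At an unadjusted p under 0.05 there were 293 genes higher (1.47%) and 246 lower (1.23%). The calls at an adjusted p under 0.05 moved with single libraries. Without 1 of the 8 libraries this fit called 0 to 1 genes higher, and 1 lower only without 4 AM replicate 4. Heatr3 and Etfbkmt were therefore not called in most of these fits. Without a filter on low counts, and in a fit of the 24 TAN libraries, 0 genes were called either way. With limma voom 0 genes were lower. More genes were called when the 8 libraries were fitted on their own, 229 higher (1.41% of 16201) and 171 lower (1.06%), with 8.67% and 7.69% at an unadjusted p under 0.05, and all 3 genes of the main test were among them. The fits take their spread from different libraries. The median SD of log2 CPM within a group was 0.283 at TAN 4 AM and 0.321 at TAN 8 AM, the lowest of the 12 groups, against 0.34 to 0.877 in the others.

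The calls of the 8-library fit, an alternative to the main test, are used below to describe groups of genes, because they rest on the spread of the libraries compared. The main test pools the 12 groups because 4 libraries a group estimate the spread poorly alone. The 8-library fit takes its spread only from the groups with the lowest median SD. Only 3 genes were called in both fits, so the other calls below do not stand in the main test. Both fits take a fold change from the same 8 libraries, so neither tests the other's direction. Of the 400 genes called, 231 had an unadjusted p under 0.05 in the fit of 48 libraries. Over all tested genes, 4.64% were higher in every 8 AM library than in any 4 AM library and 4.09% were lower. In the fit of 48 libraries 9942 of 19977 genes had a positive and 10027 a negative log2 fold change. The counts of each list below have these shares, and the 1.41% and 1.06% called, as their reference. DESeq2 on the same 8 libraries called 473 genes higher and 476 lower, and all 400 were among them. It used the same counts and called more genes, so this is not separate support. Of the 400, 142 were called in all 8 fits that left out one library, and 8 in none of those. The number of calls moved with single libraries, from 110 higher without 4 AM replicate 3 to 240 without 4 AM replicate 4, and from 86 lower without 4 AM replicate 1 to 270 without 8 AM replicate 3. Unless the fit of 48 libraries is named, "rose" and "fell", log2 fold changes (8 AM against 4 AM, ± SE) and edgeR adjusted p-values are those of the 8-library fit.

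**Figure D1:**
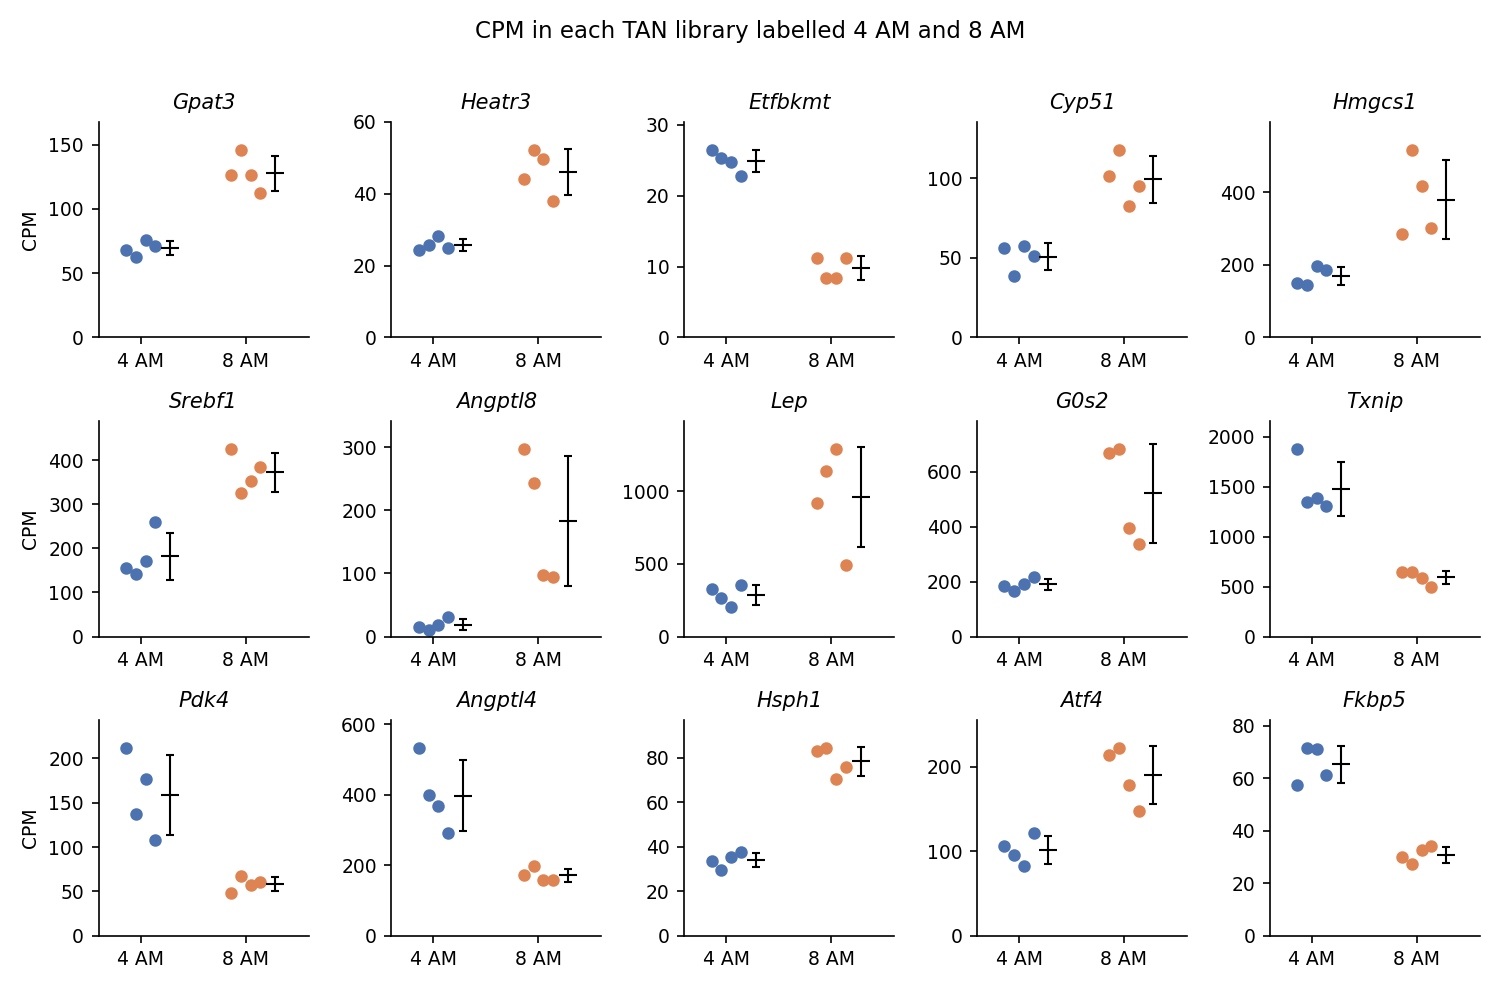
CPM (linear axis from 0) of 15 genes in each of the 4 TAN libraries labelled 4 AM (blue) and the 4 labelled 8 AM (orange), with the mean ± SD at the right of each group (n = 4). The groups do not overlap for any of these genes, and for Angptl8 and G0s2 replicates 1 and 2 stand above replicates 3 and 4 at 8 AM. Several of the genes were picked only among those without overlap and others after their values were seen. The lack of overlap is therefore not added evidence.

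Heatr3, a HEAT-repeat protein that carries a ribosomal protein into the nucleus, had 44.2, 52.2, 49.8 and 38.1 CPM in 8 AM replicates 1 to 4 and 24.2, 25.8, 28.2 and 25.03 CPM in 4 AM replicates 1 to 4. The 4 AM libraries lay close together, with all 8 AM libraries above them. Its log2 fold change was 0.84 ± 0.15 (SE) in the fit of 48 libraries (edgeR adjusted p = 0.0225). It lies at chr8:88137855-88172027 (GRCm38, plus strand).

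Etfbkmt, a methyltransferase that modifies the electron transfer flavoprotein of fatty acid oxidation, had 11.3, 8.37, 8.33 and 11.2 CPM at 8 AM and 26.5, 25.3, 24.8 and 22.8 CPM at 4 AM. Both groups were narrow and far apart. Its log2 fold change was -1.34 ± 0.24 in the fit of 48 libraries (edgeR adjusted p = 0.0225). It lies at chr6:149139849-149151171 on the plus strand, and its RefSeq start is downstream of this start.

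The 250 bases before the RefSeq start (GRCm38.p6) are shown for Heatr3 and Etfbkmt because these genes were called in both fits, and for Hmgcs1 and Txnip because they carry an element of the sterol or the glucose response. Capitals mark the letters TCACNCCAC, a sterol regulatory element, in Hmgcs1 and a carbohydrate response element, with the letters CACGNG 2 times and 5 bases of any kind between them, in Txnip. Both were searched on both strands, and the 2 motifs did not overlap.
Heatr3, chr8:88137635-88137884, plus strand: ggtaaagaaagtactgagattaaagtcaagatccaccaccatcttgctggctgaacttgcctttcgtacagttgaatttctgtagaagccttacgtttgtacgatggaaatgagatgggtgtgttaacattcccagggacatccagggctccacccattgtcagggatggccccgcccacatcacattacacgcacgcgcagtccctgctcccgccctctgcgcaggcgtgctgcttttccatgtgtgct
Etfbkmt, chr6:149141263-149141512, plus strand: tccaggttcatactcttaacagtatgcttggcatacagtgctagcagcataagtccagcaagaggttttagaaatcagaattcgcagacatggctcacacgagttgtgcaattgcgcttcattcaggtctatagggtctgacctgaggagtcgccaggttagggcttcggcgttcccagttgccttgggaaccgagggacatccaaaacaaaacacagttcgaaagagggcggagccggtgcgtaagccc
Hmgcs1, chr13:119690101-119690350, plus strand: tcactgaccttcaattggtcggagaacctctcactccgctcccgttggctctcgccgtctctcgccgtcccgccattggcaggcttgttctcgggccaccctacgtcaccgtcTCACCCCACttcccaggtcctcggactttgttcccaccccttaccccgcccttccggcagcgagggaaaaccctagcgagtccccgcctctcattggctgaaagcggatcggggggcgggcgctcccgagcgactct
Txnip, chr3:96557707-96557956, plus strand: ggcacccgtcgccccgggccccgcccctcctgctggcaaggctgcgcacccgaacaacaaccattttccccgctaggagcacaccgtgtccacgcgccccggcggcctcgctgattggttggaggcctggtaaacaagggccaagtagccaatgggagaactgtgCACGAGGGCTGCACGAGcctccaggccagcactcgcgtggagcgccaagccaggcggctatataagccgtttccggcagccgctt

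The sterol element began 137 bases before the start of Hmgcs1. Its letters occur in 1.05% of 32851 promoter windows of this length and in 1 of 20 windows of the cholesterol list. The carbohydrate element began 85 bases before the start of Txnip, and 0.0457% of the windows hold its letters. Neither was found in the windows of Heatr3 and Etfbkmt. These are matches of letters and not sites shown to be bound.

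Several genes of cholesterol synthesis were higher at 8 AM. Of 24 genes of this list tested in the 8 libraries, 9 rose and 0 fell, against 1.41% and 1.06% of all genes. In the fit of 48 libraries 22 of 25 had a positive log2 fold change, and the median was 0.43, against -0.00148 over all genes. The genes that rose run from HMG-CoA synthesis to the late sterol enzymes.

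Hmgcs1, which makes HMG-CoA, had 285, 517, 416 and 302 CPM at 8 AM and 149.6, 146, 198 and 185 CPM at 4 AM (log2 fold change 1.17 ± 0.18, edgeR adjusted p = 0.00475). All 8 AM libraries were above all 4 AM libraries, with the widest spread at 8 AM. Mvd, the mevalonate decarboxylase, rose from 12.4 ± 2.999 to 23.4 ± 3.63 CPM (mean ± SD, n = 4). Sqle, squalene epoxidase, rose from 30.4 ± 5.98 to 51.7 ± 8.94 CPM.

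Cyp51, which removes a methyl group of lanosterol, had 101, 118, 82.9 and 95.2 CPM at 8 AM and 55.9, 38.5, 57.2 and 51.1 CPM at 4 AM (log2 fold change 0.98 ± 0.14, edgeR adjusted p = 0.00164). The groups did not overlap. Msmo1, Hsd17b7 and Sc5d, enzymes of the later sterol steps, had log2 fold changes of 0.99 ± 0.13, 1.05 ± 0.19 and 1.32 ± 0.21. Stard4, a carrier of cholesterol between membranes, had a log2 fold change of 0.63 ± 0.14 (edgeR adjusted p = 0.0209). Hmgcs1, Cyp51, Msmo1, Hsd17b7 and Sc5d were each called in 8 of the 8 fits without one library, and Stard4 in 4.

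Insig1, a feedback brake on SREBP, had 698 ± 197 CPM at 8 AM and 368 ± 106 CPM at 4 AM and was not called (edgeR adjusted p = 0.0562). Srebf2, which encodes the main factor of the pathway, had 75.9 ± 17.3 and 60.6 ± 8.07 CPM (edgeR adjusted p = 0.282). The values of Insig1 did not overlap between the groups, and those of Srebf2 did.

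Srebf1, the SREBP gene of fatty acid synthesis, rose, and 2 enzymes of that pathway fell. Srebf1 had 425, 324, 353 and 385 CPM at 8 AM and 155, 142, 171 and 259 CPM at 4 AM, with no overlap (log2 fold change 1.04 ± 0.17, edgeR adjusted p = 0.00667). Acly and Acss2, which make cytosolic acetyl-CoA from citrate and acetate, had log2 fold changes of -0.71 ± 0.18 and -0.66 ± 0.16 (edgeR adjusted p = 0.0485 and 0.0459). They were called in only 1 and 2 of the 8 fits without one library, and the groups overlapped for Acss2. Fasn, the fatty acid synthase, was not called, with 2801 ± 861 CPM at 8 AM and 3405 ± 751 CPM at 4 AM. Over the de novo lipogenesis list, 1 of 17 genes rose and 2 fell, with a median log2 fold change of -0.40.

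Some genes of triglyceride assembly rose. Gpat3, an acyltransferase that begins glycerolipid synthesis, had 126, 146, 127 and 113 CPM at 8 AM and 67.8, 62.9, 75.7 and 71.2 CPM at 4 AM (log2 fold change 0.89 ± 0.10, edgeR adjusted p = 0.000596). Its groups were narrow and apart. Gpam, another such acyltransferase, Lpin1, the phosphatidate phosphatase, and Dgat2, which adds the last acyl chain, had log2 fold changes of 0.63 ± 0.13, 0.66 ± 0.13 and 0.76 ± 0.16. In the list 4 of 15 genes rose and 1 fell, against 1.41% and 1.06% of all genes. The one that fell was Pck1, which supplies glycerol phosphate in fasting, with 773 ± 71.3 CPM at 8 AM and 1528 ± 583 CPM at 4 AM (edgeR adjusted p = 0.0363, called in 2 of the 8 fits without one library).

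G0s2, an inhibitor of the triglyceride lipase ATGL, had 668, 683, 396 and 337 CPM at 8 AM and 184, 166, 193 and 216 CPM at 4 AM (log2 fold change 1.47 ± 0.21, edgeR adjusted p = 0.00459). Replicates 1 and 2 were the higher ones at 8 AM, and all 4 were above the 4 AM libraries. Plin2 and Plin4, coat proteins of the lipid droplet, and Hilpda, another ATGL inhibitor, had log2 fold changes of 0.67 ± 0.15, 0.63 ± 0.11 and 0.88 ± 0.20. Adrb1, a beta-adrenergic receptor, was called higher (edgeR adjusted p = 0.0419) although 8 AM replicate 4 had 2.79 CPM and 4 AM replicate 4 had 3.404 CPM. Lipe, the hormone-sensitive lipase, fell from 801 ± 62.9 to 557 ± 39.03 CPM (edgeR adjusted p = 0.0243). Pnpla2, which encodes ATGL, was not called, with 1058 ± 135 CPM at 8 AM and 1379 ± 129.5 CPM at 4 AM (edgeR adjusted p = 0.148). Lipe and Pnpla2 are also among the 9 adipocyte markers used below, whose median log2 fold change was -0.30. The part of adipocyte content in their values was not tested. In all, 5 of 19 genes of the lipolysis and droplet list rose and 1 fell, against 1.41% and 1.06% of all genes.

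Angptl8, a feeding-induced regulator of lipoprotein lipase, had 297, 243, 96.8 and 94.9 CPM at 8 AM and 15.8, 9.72, 18.4 and 30.9 CPM at 4 AM. The groups did not overlap, and at 8 AM replicates 1 and 2 were far above replicates 3 and 4. The log2 fold change was 3.30 ± 0.57 (edgeR adjusted p = 0.0409), and it was called in only 2 of the 8 fits without one library. In the fit of 48 libraries its edgeR adjusted p was 0.7. Angptl8 lies inside Dock6 on the other strand, and the strand setting of the counts is not stated, so reads of the 2 genes cannot be told apart.

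Lep, which encodes leptin, had 919.5, 1138, 1292 and 494 CPM at 8 AM and 331, 264, 202 and 357 CPM at 4 AM. The groups did not overlap, and 8 AM replicate 4 was the lowest of its group. The log2 fold change was 1.74 ± 0.28 (edgeR adjusted p = 0.0107, and 1 in the fit of 48 libraries). Of 14 adipokine genes 3 rose and 0 fell, and Apln (apelin) was among those that rose (log2 fold change 0.93 ± 0.22). Most of the list went the other way in the fit of 48 libraries. There 5 of 15 had a positive and 10 a negative log2 fold change (median -0.15).

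Some genes known to be active in fasting fell, from a list without a common direction. Of 19 FoxO and fasting genes 2 fell and 0 rose, and in the fit of 48 libraries 10 had a positive and 10 a negative log2 fold change, with a median of -0.01. Txnip, which restrains glucose uptake, had 644, 644, 584 and 499 CPM at 8 AM and 1880, 1352, 1385 and 1307 CPM at 4 AM (log2 fold change -1.31 ± 0.15, edgeR adjusted p = 0.000451). All 8 AM libraries were below all 4 AM libraries, and 4 AM replicate 1 stood above the other 3. In the fit of 48 libraries the value was -1.32 ± 0.30 (edgeR adjusted p = 0.194).

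Pdk4, the kinase that shuts off pyruvate dehydrogenase, had 48.4, 67.8, 57.2 and 60.5 CPM at 8 AM and 212, 138, 177 and 108 CPM at 4 AM (log2 fold change -1.43 ± 0.18, edgeR adjusted p = 0.00154). Angptl4, an inhibitor of lipoprotein lipase that rises in fasting, had 172, 197, 158 and 158 CPM at 8 AM and 533, 398, 367 and 292 CPM at 4 AM (log2 fold change -1.21 ± 0.16, edgeR adjusted p = 0.00136). Both were lower in every 8 AM library and varied more at 4 AM. Txnip and Pdk4 were the 2 genes of the FoxO and fasting list that fell.

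Fkbp5, a co-chaperone induced by glucocorticoids, had 29.9, 27.2, 32.5 and 34.05 CPM at 8 AM and 57.5, 71.6, 71.1 and 61.3 CPM at 4 AM (log2 fold change -1.07 ± 0.12, edgeR adjusted p = 0.000451). The groups were well apart. In the list of glucocorticoid targets 3 of 14 fell (Fkbp5, Pdk4 and Angptl4, the last 2 also known as fasting genes) and 1 rose. That gene was Ddit4, an inhibitor of mTOR, with 45.3 ± 5.46 CPM at 8 AM and 28.3 ± 1.39 CPM at 4 AM.

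In fatty acid oxidation 3 of 20 genes fell and 0 rose, against 1.06% and 1.41% of all genes. In the fit of 48 libraries 0 of 20 had a positive log2 fold change, against 9942 of 19977 genes. Cpt1a, which admits fatty acids to mitochondria, had 33.03, 29.8, 35.5 and 34.1 CPM at 8 AM and 55.6, 62.4, 54.4 and 42.7 CPM at 4 AM, with no overlap (log2 fold change -0.69 ± 0.13, edgeR adjusted p = 0.00945). Slc25a20, the carnitine carrier, and Ppara, the nuclear receptor of the pathway, had log2 fold changes of -0.60 ± 0.11 and -1.89 ± 0.36. The median over the list was -0.26, against 0.015 over all genes of the 8-library fit. The adipocyte markers had a median of -0.30 in the same fit, and their part in this difference was not tested. Of 72 nuclear OXPHOS, 20 TCA cycle, 19 BCAA catabolism and 13 mitochondrially encoded genes 0 were called, with medians of -0.16, -0.19, -0.21 and -0.03. The members of smallest p in these lists were Ndufs6, Pcx, Hibch and mt-Nd3.

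**Figure D2:**
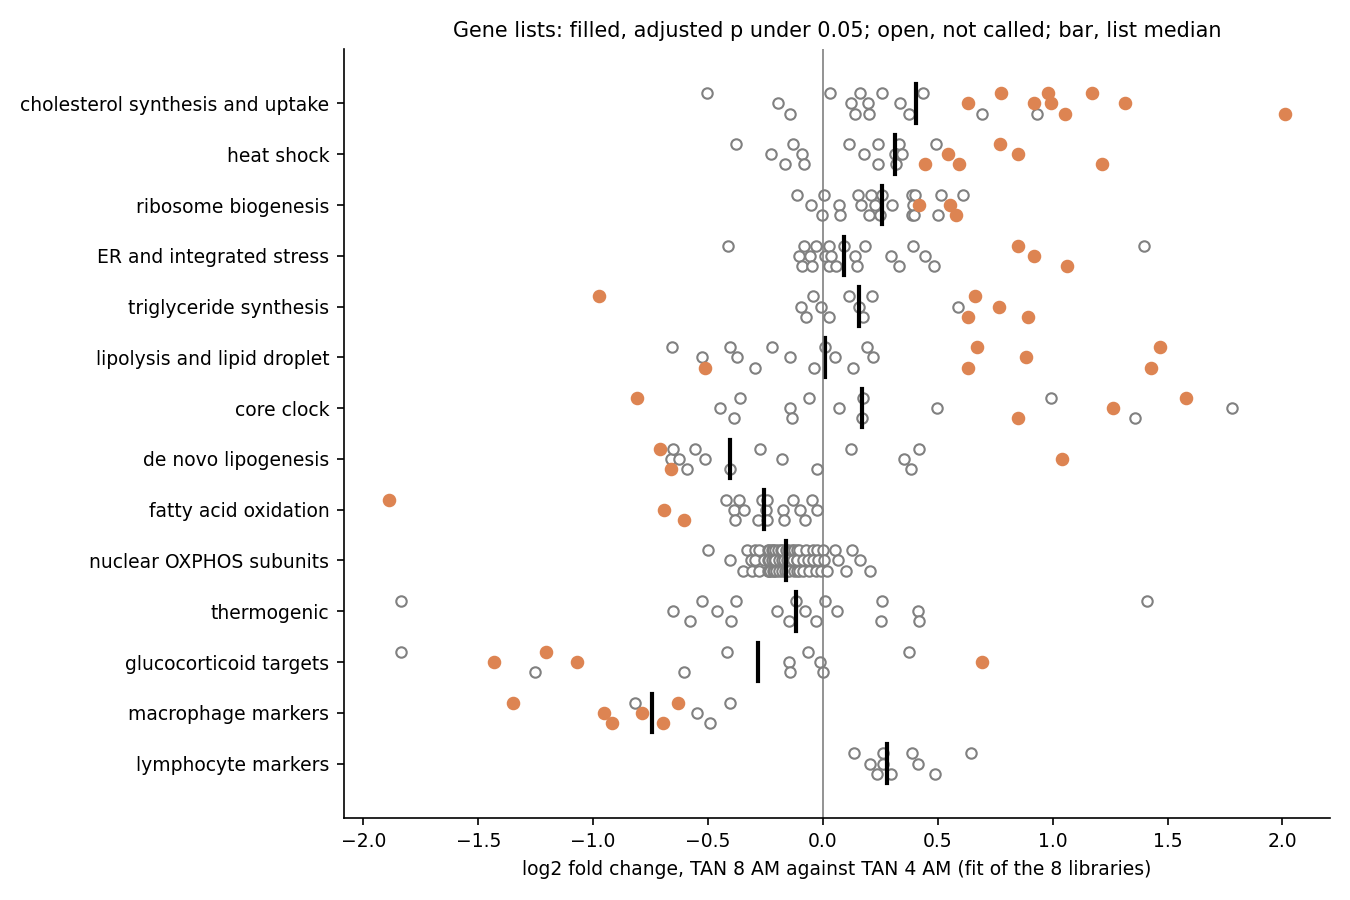
Log2 fold change (x axis, 8 AM against 4 AM in the fit of the 8 libraries) of each tested member of 14 gene lists. Filled orange points had an adjusted p under 0.05, open points did not, and the black bar is the list median. The called cholesterol and heat shock genes all lie above 0 and the called macrophage markers all below 0.

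Of 21 heat shock genes 6 rose and 0 fell, against 1.41% and 1.06% of all genes. In the fit of 48 libraries 15 had a positive and 6 a negative log2 fold change, against 9942 and 10027 of 19977 genes. Hsph1, an HSP110 chaperone, had 83.02, 84.3, 70.5 and 75.98 CPM at 8 AM and 33.7, 29.7, 35.3 and 37.5 CPM at 4 AM, with no overlap (log2 fold change 1.21 ± 0.11, edgeR adjusted p = 0.000157). Dnaja1 (an HSP40), Hspb8, Chordc1, Dnajb4 and Hspa4 had log2 fold changes of 0.85 ± 0.14, 0.77 ± 0.14, 0.59 ± 0.12, 0.54 ± 0.13 and 0.44 ± 0.09. Hspa1a and Hspa1b, the inducible HSP70 genes, were not called and had low levels, 1.26 ± 0.765 and 1.74 ± 0.183 CPM at 8 AM. Their near-identical sequences can share reads. Cirbp, a cold-inducible RNA-binding protein, fell from 80.8 ± 10.9 to 54.9 ± 7.39 CPM (edgeR adjusted p = 0.0289).

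In a list of ER stress and integrated stress response genes, 3 of 25 rose and 0 fell, against 1.41% and 1.06% of all genes. In the fit of 48 libraries 18 had a positive and 7 a negative log2 fold change. The list median was 0.09 in the 8-library fit. Atf4, the central transcription factor of the integrated stress response, had 213, 222, 179 and 147 CPM at 8 AM and 106, 95.5, 82.7 and 121 CPM at 4 AM, with no overlap (log2 fold change 0.92 ± 0.14, edgeR adjusted p = 0.00468). Its target Ddit3 (CHOP) rose from 16.6 ± 2.25 to 29.7 ± 5.35 CPM. Trib3, another target, was called (edgeR adjusted p = 0.0312) although 8 AM replicate 4 (7.39 CPM) was just below 4 AM replicate 4 (7.44 CPM). Of 25 ribosome biogenesis genes 3 rose (Nolc1, Nop2 and Dkc1) and 0 fell. In the fit of 48 libraries 21 of these 25 had a positive log2 fold change, against 9942 of 19977 genes. Among 81 genes of the cytosolic ribosome list only Rpl7l1 was called (log2 fold change 0.43 ± 0.11).

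Among 17 core clock genes 3 rose and 1 fell, and 0 were called in the fit of 48 libraries. Arntl, the BMAL1 activator, had 44.5, 47.8, 51.2 and 40.4 CPM at 8 AM and 25.3, 28.9, 20.8 and 27.6 CPM at 4 AM (log2 fold change 0.85 ± 0.13, edgeR adjusted p = 0.00409). Nr1d1, a repressor of Arntl, had 6.96, 13.1, 11.4 and 16.8 CPM at 8 AM and 4.51, 4.71, 4.09 and 2.88 CPM at 4 AM (log2 fold change 1.58 ± 0.27, edgeR adjusted p = 0.00641). Both genes were higher in every 8 AM library. Nr1d1 overlaps Thra on the other strand.

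Per3 had 14.7, 13.5, 16.5 and 16.9 CPM at 8 AM and 26.7, 25.4, 28.7 and 27.7 CPM at 4 AM, with no overlap, and fell (log2 fold change -0.81 ± 0.13, edgeR adjusted p = 0.00577). Npas2, a partner of BMAL1, was called at the edge of the threshold (edgeR adjusted p = 0.0499) and in 0 of the 8 fits without one library. Bhlhe40 and Bhlhe41 (DEC1 and DEC2, repressors of the clock) were not called, with 84.3 ± 43.9 and 19.01 ± 8.74 CPM at 8 AM and 24.7 ± 6.23 and 7.45 ± 2.98 CPM at 4 AM. Among the genes driven by the clock, Nfil3 rose from 14.7 ± 2.11 to 27.8 ± 3.48 CPM and Tef fell from 116 ± 5.92 to 82.3 ± 10.6 CPM, and the NFIL3 protein is known to oppose the factors of the TEF family. Clock, Per1, Per2, Cry1, Cry2, Nr1d2, Rora, Ciart, Csnk1d and Csnk1e were not called, nor were Dbp, Hlf, Wee1, Usp2, Nampt, Por, Tspan4, Lonrf3 and Cys1. Rorb was too low to be tested in the 8 libraries, with a count in 1 of the 4 at 8 AM.

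**Figure D3:**
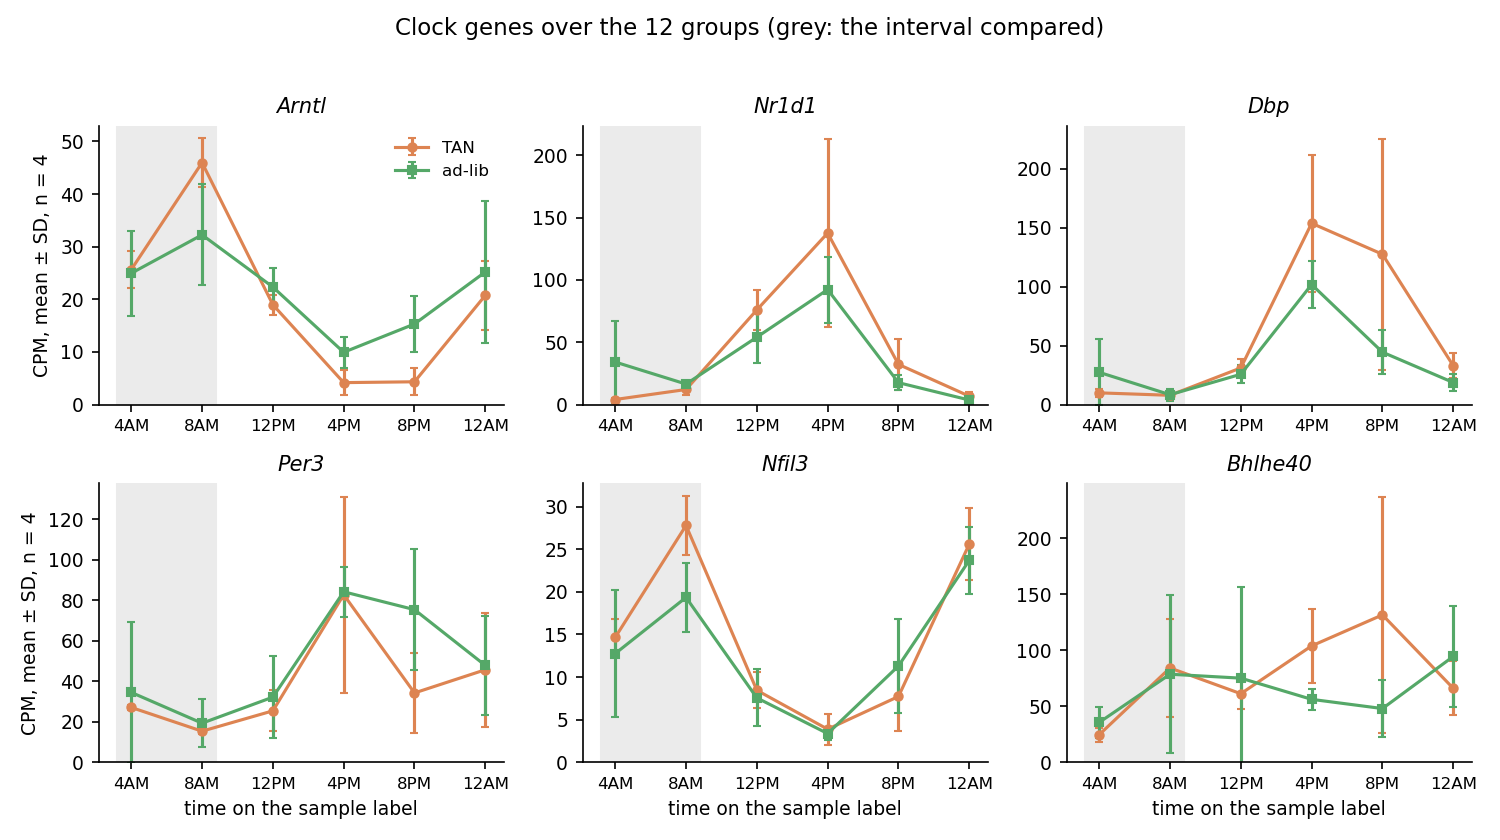
CPM (mean ± SD, n = 4) of 6 clock genes at the 6 times on the sample labels in TAN (orange circles) and ad-lib (green squares) mice, with the interval compared in grey. Arntl is highest at the label 8 AM in both diets, and Nr1d1 and Dbp are highest at the label 4 PM.

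By the labels, Arntl was highest at 8 AM in TAN (45.97 ± 4.598 CPM) and in ad-lib mice (32.2 ± 9.59 CPM), and in TAN it was lowest at 4 PM and 8 PM (4.17 ± 2.31 and 4.33 ± 2.59 CPM). Nr1d1 had 12.1 ± 4.08 CPM at TAN 8 AM against 138 ± 75.6 CPM at its highest, at TAN 4 PM. Dbp was highest at 4 PM in TAN (154 ± 58.02 CPM) and in ad-lib mice (102 ± 19.9 CPM). In mice kept under light and dark, Arntl in peripheral tissues is known to be highest near the start of the light phase and Dbp late in it. In the second reading the same values would stand at 8 PM and 4 AM.

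Several macrophage markers were lower at 8 AM. Of 10 markers 6 fell and 0 rose, against 1.06% and 1.41% of all genes. In the fit of 48 libraries 0 of 10 markers had a positive log2 fold change, against 9942 of 19977 genes, and 0 markers were called. Their summed level was 1250, 1010, 1227 and 1336 CPM at 8 AM and 1596, 2014, 1517 and 1968 CPM at 4 AM. The groups did not overlap, at the smallest p that 4 against 4 allows (0.0286, exact permutation test, two-sided, and 0.163 after Benjamini-Hochberg adjustment over 20 library measures).

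Csf1r, a receptor on which macrophages depend, had 53.4, 53.8, 71.7 and 66.95 CPM at 8 AM and 83.3, 109, 89.1 and 100.4 CPM at 4 AM (log2 fold change -0.63 ± 0.12, edgeR adjusted p = 0.014). C1qa and C1qc, of complement C1q, had log2 fold changes of -0.79 ± 0.15 and -0.70 ± 0.14. Mrc1, Cd163 and Adgre1, markers of tissue macrophages, had -0.92 ± 0.18, -1.35 ± 0.30 and -0.95 ± 0.21 on the same scale and were called in 3, 1 and 1 of the 8 fits without one library. In whole tissue fewer cells of a type and less RNA per cell cannot be told apart.

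Markers of other cells are given beside this difference. The summed stromal markers were 758 to 1663 CPM at 8 AM and 1601 to 2085 CPM at 4 AM, with a median log2 fold change of -0.45. The mast cell markers were 85.8 to 194 and 186 to 289 CPM (median -0.88), and the lymphocyte markers 971 to 1533 and 772 to 1224 CPM (median 0.28). All 3 sums overlapped between the groups and 0 members of these lists were called. Of the adipocyte markers 1 of 9 fell (Lipe, given above with the lipolysis genes). In the fit of 48 libraries 8 had a negative log2 fold change (median -0.30 in the 8-library fit). Endothelial markers had a negative value in 8 of 9 (median -0.28) and erythrocyte markers in 6 of 6 (median -0.52), and 0 of either list were called. Lymph node stroma markers were present in all 8 libraries, with sums of 351 to 490 CPM at 8 AM and 289 to 479 CPM at 4 AM. At TAN 4 PM these sums were 7.40 to 81.4 CPM. The part of lymph node RNA in the values of the 8 libraries was not tested.

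Skeletal muscle markers ranged from 70.3 to 174 CPM at 8 AM and from 52 to 414 CPM at 4 AM. Cd79a, a B cell gene, had 204 ± 43.1 and 146 ± 30.6 CPM. With the lymphocyte markers as a covariate in the fit of 48 libraries, 6 genes were called higher and 3 lower, and the part of the other cell types in the gene differences was not tested. Il33, an alarmin of stromal cells, and its receptor gene Il1rl1 (ST2) fell by 0.82 ± 0.20 and 1.05 ± 0.23 on the log2 scale (edgeR adjusted p = 0.0457 and 0.0224). They were the 2 of 6 genes called in a list of type 2 immune genes, which are not all lymphoid. Of these 6, 3 had a positive and 3 a negative log2 fold change in the fit of 48 libraries (median -0.03).

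**Figure D4:**
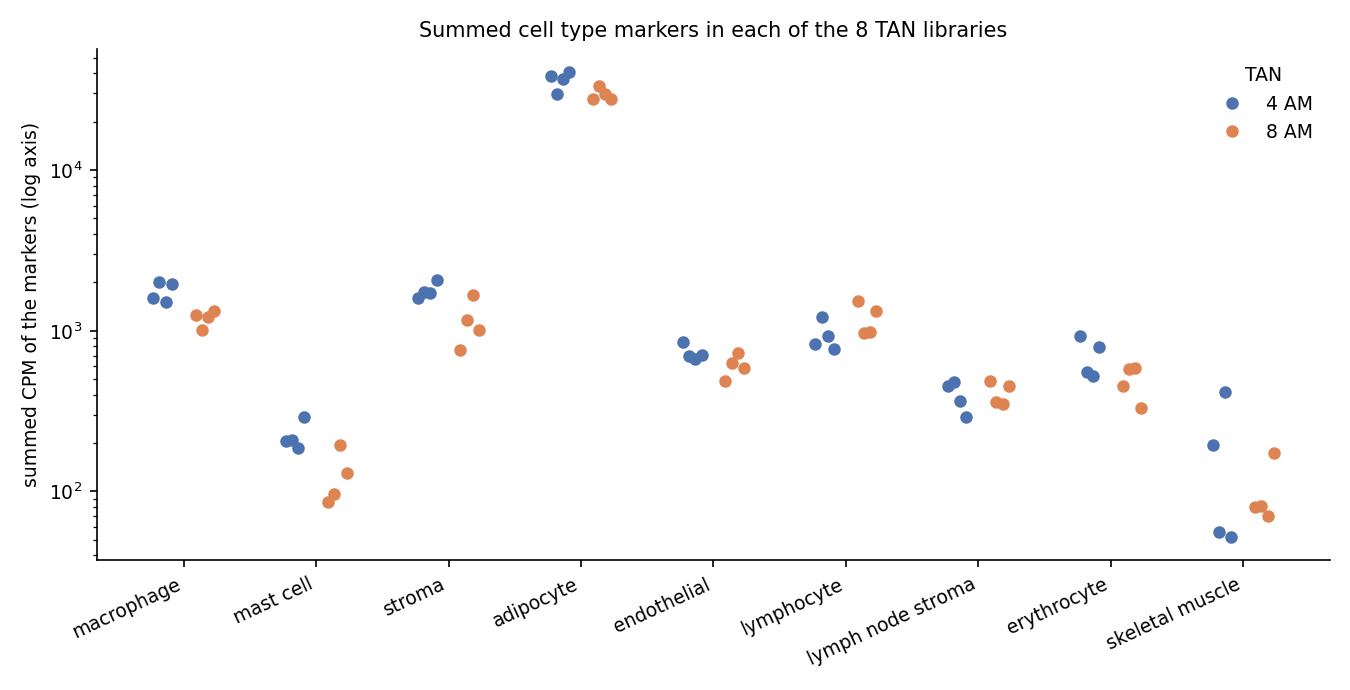
Summed CPM (log axis) of the markers of 9 cell types in each of the 4 TAN libraries labelled 4 AM (blue) and the 4 labelled 8 AM (orange). The macrophage sums do not overlap, with 1010 to 1336 CPM at 8 AM and 1517 to 2014 CPM at 4 AM, while all the other sums shown overlap.

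The protein-coding genes without overlap that had the smallest p in the fit of 48 libraries gave further names. Apart from the 3 genes of the main test none was called in that fit, and all were called in the 8-library fit. Peg10, an imprinted gene derived from a retrotransposon, had 19.7, 14.5, 21.1 and 4.87 CPM at 8 AM and 1.86, 1.66, 1.92 and 2.04 CPM at 4 AM (log2 fold change 3.01 ± 0.38, edgeR adjusted p = 0.00152). Its 4 AM libraries were almost equal, and 8 AM replicate 4 was far below the other 3. Apex2 (an endonuclease of DNA repair), Cdkn2b (an inhibitor of the cell cycle), Rpia (of the pentose phosphate pathway), Srsf2 (a splicing factor), Wdr77 (of the methylosome) and Chsy1 (a chondroitin synthase) also rose, with log2 fold changes from 0.60 ± 0.10 to 1.55 ± 0.28.

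Those that fell were Mtmr14 (a phosphoinositide phosphatase), Ssc4d (a scavenger receptor), Thbs1 (thrombospondin), Tmem140, Klhl24 (an adaptor of a ubiquitin ligase), Slc30a1 (a zinc exporter), Fmo4 (a flavin monooxygenase) and Tppp (a tubulin-binding protein), with log2 fold changes from -2.25 ± 0.46 to -0.57 ± 0.14. Tppp had 12.8, 16.8, 15.5 and 9.09 CPM at 8 AM and 38.1, 30.8, 48.7 and 30.7 CPM at 4 AM, with no overlap (edgeR adjusted p = 0.00164). Thbs1 had 6.91, 4.67, 8.63 and 6.95 CPM at 8 AM and 23.97, 13.8, 16.98 and 16.9 CPM at 4 AM (edgeR adjusted p = 0.00448). Apex2 overlaps Alas2 and Pfkfb1 on the other strand, Cyp51 overlaps Akap9 and Txnip overlaps Gm15441, and their reads cannot be told apart without strand. In the 8-library fit none of these partners, nor Dock6 and Thra, was called, the lowest edgeR adjusted p being 0.0548 for Thra, which overlaps Nr1d1 on the other strand.

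Single members of other lists were called. Ppp1r3d, a subunit that directs a phosphatase to glycogen, had 34.1, 49.7, 37.8 and 47.3 CPM at 8 AM and 12.5, 10.4, 11.4 and 24.2 CPM at 4 AM (log2 fold change 1.54 ± 0.24, edgeR adjusted p = 0.00731). The glycogen branching enzyme Gbe1 fell by 0.57 ± 0.13 on the log2 scale. Pfkfb3, which raises glycolytic flux, rose from 402 ± 70.5 to 757 ± 273 CPM. The collagen genes Col5a3, Col15a1 and Col4a2 rose in a matrix list of 23 genes in which 0 fell. That list had no common direction, with 10 positive and 13 negative log2 fold changes in the fit of 48 libraries. Its median was -0.058 in the 8-library fit.

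Txnrd1 (thioredoxin reductase), Jund (an AP-1 factor), Sh2b2 (an adaptor of the insulin receptor) and Zfp467 (a factor of adipogenesis) also rose, with log2 fold changes of 0.42 ± 0.10, 0.73 ± 0.17, 0.59 ± 0.13 and 0.52 ± 0.13, and Cyr61, a matrix protein induced as an immediate early gene, fell (-1.44 ± 0.32). In the thermogenic (19 tested), proteasome (31), autophagy (27), interferon (18) and proliferation (22) lists 0 genes were called, and the members of smallest p there were Cidea, Psmc2, Atg14, Irf7 and Mcm7. Pdpk1, Pparg and Noc3l, the members of smallest p in the insulin signalling, adipogenic and ribosome biogenesis lists in the fit of 48 libraries, were called in neither fit.

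In ad-lib mice the same interval gave 0 genes called higher and 0 lower by edgeR (0.0%), with 233 (1.17%) and 275 (1.38%) at an unadjusted p under 0.05. The difference between the diets was tested for every gene, and 0 genes differed at an adjusted p under 0.05 (0.0%), whereas DESeq2 gave 9, and without adjustment 238 (1.19%) had a p under 0.05 with a higher value in TAN and 231 (1.16%) with a lower one. No gene can therefore be called particular to TAN by the main test. The smallest p of that test was that of Heatr3, whose log2 change was 0.84 ± 0.15 in TAN and -0.15 ± 0.15 in ad-lib mice (difference 0.98 ± 0.21, edgeR adjusted p = 0.854). Next were Etfbkmt (-1.34 ± 0.24 and 0.06 ± 0.24) and Map2k6, a kinase of the p38 pathway (0.72 ± 0.28 and -0.85 ± 0.28).

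Of the 400 genes called in the 8 libraries, 243 had an ad-lib change of the same sign. The share with the same sign over all genes is not given here, so this count has no reference. The median ad-lib log2 fold change was 0.108 for the 229 higher genes and -0.0722 for the 171 lower genes, against -0.0132 over all tested genes. Cholesterol genes had a median log2 fold change of 0.43 in TAN and -0.29 in ad-lib mice. Of these, 9 of 25 had an unadjusted p under 0.05 in the test of the difference. Heat shock genes had medians of 0.31 and -0.10, with 6 of 21 at that level. Over all tested genes 469 of 19977 were at that level. In the de novo lipogenesis, triglyceride and ribosome biogenesis lists 2 of 18, 0 of 15 and 0 of 25 were. The cholesterol and heat shock lists stood out by their TAN change, which the difference contains. These counts therefore do not test an effect of the diet.

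G0s2 and Angptl8 had positive values in both diets, with ad-lib log2 changes of 1.53 ± 0.49 and 2.42 ± 0.90 (SE). Nr1d1 had 1.57 ± 0.54 in TAN and -1.05 ± 0.52 in ad-lib mice, a difference of 2.63 ± 0.75 that was not called (edgeR adjusted p = 1). The ad-lib groups varied more than the TAN groups, with a median SD of log2 CPM of 0.653 at 4 AM and 0.756 at 8 AM. Their lymphocyte sums were 292, 1153, 2093 and 36.8 CPM in ad-lib 8 AM replicates 1 to 4. They were 1393, 1164, 10.9 and 2392 CPM at ad-lib 4 AM, where replicate 3 had 7423 CPM of muscle markers. Erythrocyte markers had a median ad-lib log2 fold change of 2.14, and 6 of 6 had an unadjusted p under 0.05 for the difference. The part of these markers in the comparison of the diets was not tested.

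**Figure D5:**
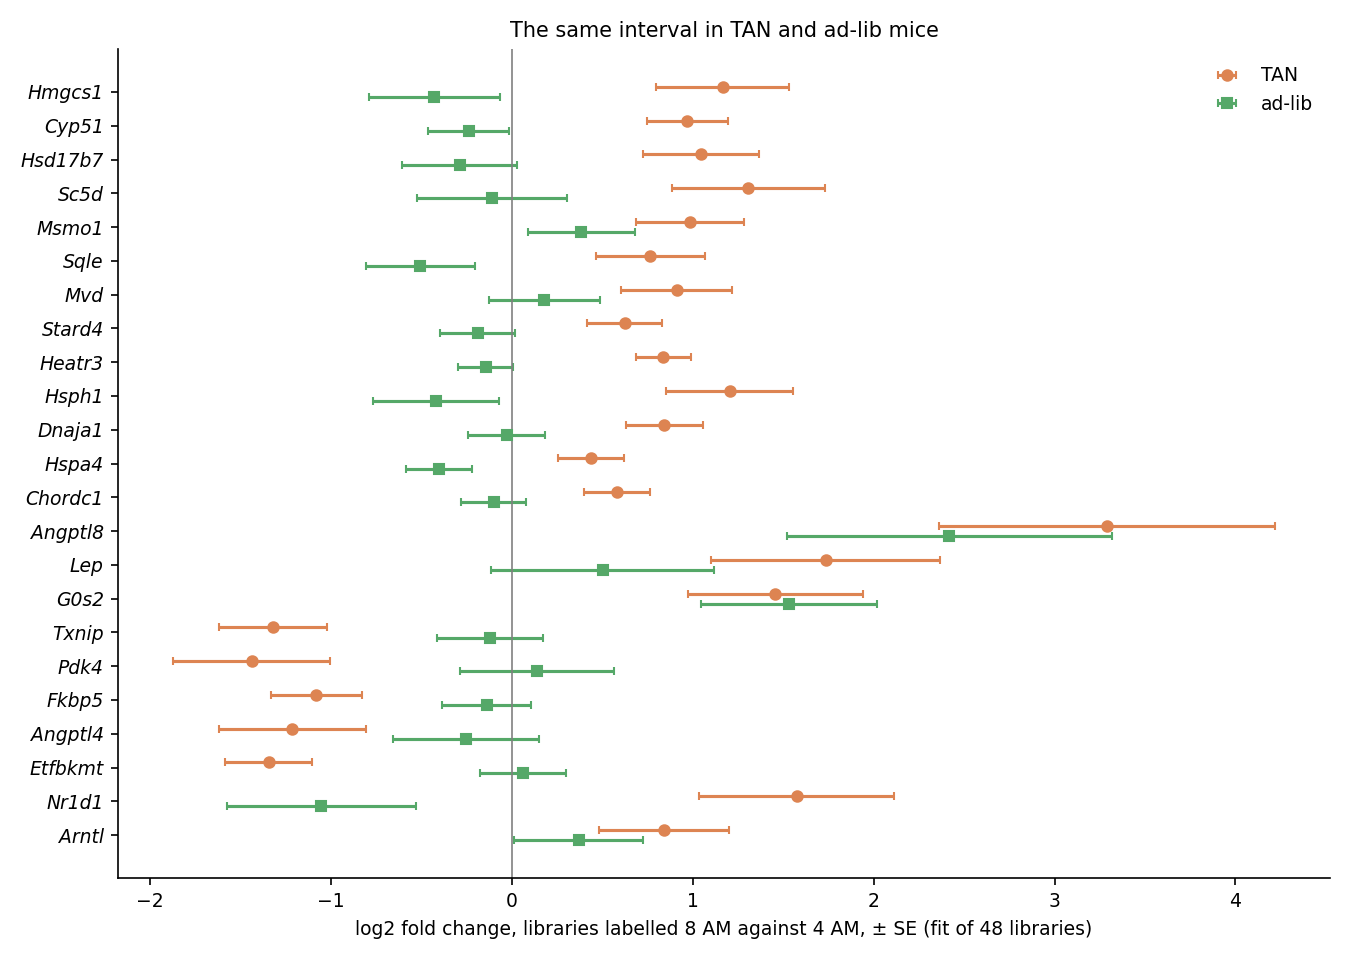
Log2 fold change ± SE (x axis) between the libraries labelled 8 AM and 4 AM in TAN (orange circles) and ad-lib (green squares) mice, from the fit of 48 libraries, for genes described in the text. Angptl8 and G0s2 are positive in both diets, and no difference between the diets passed an adjusted p under 0.05.

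The change across the first meal, from 8 PM to 12 AM by the labels, differed from that across the second meal in 15 genes with a higher value (0.0751%) and 66 with a lower value (0.33%) at the second, by edgeR on 48 libraries. At an unadjusted p under 0.05 these shares were 7.74% and 10.8%. These calls depend on the libraries fitted, with 0 in a separate fit of the 16 libraries compared and 12 to 53 without one of the 4 AM or 8 AM libraries. The libraries labelled TAN 8 PM also differ in their markers. Their adipocyte sums were 14517, 9583, 46776 and 69222 CPM and their lymphocyte sums 2346, 2670, 958 and 44.1 CPM, against 35299 to 69481 and 11.4 to 1407 CPM at TAN 12 AM. Without 8 PM replicates 1 and 2 only Nr1d1 was called. With all 48 libraries Hspa4l (an HSP110 family chaperone), Sertad1 (a transcriptional coregulator) and Rnf125 (a ubiquitin ligase) had the smallest p. Angptl4 had 398 ± 100.5 and 171 ± 18.7 CPM before and after the second meal and 43.04 ± 24.1 and 164 ± 51.8 CPM before and after the first (difference of log2 changes -3.15 ± 0.58, edgeR adjusted p = 0.00968). Txnip had 1481 ± 268 and 593 ± 68.9 CPM around the second and 748 ± 229.6 and 1269 ± 271 CPM around the first (difference -2.08 ± 0.42, edgeR adjusted p = 0.018). Without those 2 libraries the differences were -2.58 ± 0.62 for Angptl4 and -1.75 ± 0.46 for Txnip, and neither was called (edgeR adjusted p = 0.137 and 0.201). The part of the other cell types in them was not tested. Heatr3 had 25.8 ± 1.69 and 46.1 ± 6.29 CPM around the second and 26.9 ± 3.505 and 43.9 ± 4.27 CPM around the first (difference 0.13 ± 0.21, not called).

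The libraries that the supplementary tables list as 4 AM and 8 AM are those labelled 4 PM and 8 PM. Their change differed from the one described here in 28 genes with a higher value (0.14%) and 7 with a lower value (0.035%) between the libraries labelled 4 AM and 8 AM, with 10.2% and 11.1% at an unadjusted p under 0.05. A separate fit of these 16 libraries gave 0 genes, and leaving out one of the 4 AM or 8 AM libraries gave 3 to 19. At TAN 4 PM the adipocyte sums were 47453 to 71106 CPM and the lymphocyte sums 9.24 to 338 CPM, so 8 PM replicates 1 and 2 stand apart from these too. Without them 7 genes differed. Fkbp5 had 35.7 ± 9.61 CPM at the label 4 PM and 73.3 ± 25.1 CPM at 8 PM, opposite in sign to its fall from 4 AM to 8 AM (difference -2.12 ± 0.35, edgeR adjusted p = 0.00399). Etfbkmt had 29.2 ± 7.29 and 40.3 ± 10.97 CPM there (difference -1.81 ± 0.34, edgeR adjusted p = 0.0161), and Grk5, a kinase of G-protein-coupled receptors, had 34.9 ± 4.05 and 16.1 ± 3.41 CPM (difference 1.81 ± 0.31, edgeR adjusted p = 0.00506). Fkbp5, Etfbkmt and Grk5 were also called without 8 PM replicates 1 and 2 (edgeR adjusted p = 0.00962, 0.00962 and 0.0487). That fit keeps 8 PM replicates 3 and 4, whose lymphocyte sums were 958 and 44.1 CPM. The part of the cell types in these differences was not tested.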

How the data were processed

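Poly-A RNA of mouse sWAT was sequenced in 48 libraries, 4 for each of 2 diets at 6 times. The authors deposited raw read counts per gene for 54532 genes, and the submitters' processing notes name TopHat 1.3.3, DESeq2 1.20.0, limma and edgeR and the builds mm9, mm10 and GRCm38 without giving their roles. The counting tool and the strand setting are not given in the sources used here, and 47 of 136 named genes overlap another tested gene. A second table of FPKM averaged over each group was not used, since it holds no spread. There were 0 columns of sample values left unused.

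Groups were taken from the sample labels. The main test was edgeR 4.0.16 in R 4.3.3 (TMM scaling, filterByExpr with a minimum count of 10, robust quasi-likelihood fit of the 12 groups, Benjamini-Hochberg adjustment over 19977 genes, called at an adjusted p under 0.05). Contrasts were 8 AM against 4 AM in TAN, the same in ad-lib mice, and the TAN change minus the ad-lib change, minus that across the first meal and minus that between the libraries labelled 4 PM and 8 PM. A fit of the 8 libraries alone tested 16201 genes. Single library measures were compared by exact permutation tests, two-sided. The script was tested on simulated data. Alternatives were RLE scaling, other filters, DESeq2 1.42.0, limma voom 3.58.1, a replicate block, covariates, and leaving out libraries. The leave-one-out, RLE and DESeq2 runs of the 8-library fit, and the run without TAN 8 PM replicates 1 and 2, were chosen after seeing the data.

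Depth was 15685080 to 21830152 counts in the 8 libraries, and 0 pairs of libraries were identical. Of the genes listed, 98.3% matched GENCODE M21 in start and end, and promoter sequences are from RefSeq.

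Named genes were all clock and clock output genes tested, the 12 protein-coding genes in each direction with the strongest evidence and no overlap (largest change among called genes, then smallest p), the called member or the member of smallest p of each functional list, and the 3 protein-coding genes of smallest adjusted p in each difference contrast. The other members named were called in the 8-library fit or belong to the same pathways, and were chosen after their values were seen. Some genes that these rules select are not reported here. The comparison and the lists were chosen with earlier results of these data known.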

Additional observations from a re-analysis of the deposited data

Results flagged for a closer look

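In 21 cases, out of 264 combinations of a gene with a group and 40 of a library measure with a group, 1 library stood apart from the other 3 by Dixon's criterion, and chance flags about 1 in 20 groups. At 8 AM these were Per1 (14.7 CPM in replicate 4), Rorb (0.42 CPM in replicate 3), Tmem140 (10.9 CPM in replicate 3), Msmo1 (72.4 CPM in replicate 3), Fasn (4091 CPM in replicate 4) and Hspb8 (189 CPM in replicate 2). At 4 AM they were Csnk1e (32.5 CPM), Txnip (1880 CPM), Cyr61 (21.3 CPM) and Pnpla2 (1573 CPM), all in replicate 1. Also at 4 AM were Slc30a1 (36.2 CPM), mt-Nd3 (85.4 CPM) and Lpin1 (182 CPM) in replicate 2, Hilpda (8.24 CPM) and Mrc1 (85.9 CPM) in replicate 3, and Cys1 (6.86 CPM), Apex2 (9.90 CPM) and Ppp1r3d (24.2 CPM) in replicate 4. Among library measures at 8 AM, replicate 2 had the fewest genes with a count (20483), replicate 3 the highest neutrophil marker sum (58.5 CPM) and replicate 4 the highest muscle marker sum (174 CPM).

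A difference between 2 changes passed an adjusted p under 0.05 in edgeR's test for the named genes given here. Against the first meal, the difference of log2 changes was -1.66 for Clock, 3.84 for Nr1d1, -2.08 for Txnip, -3.35 for Pdk4 and -3.15 for Angptl4. It was -3.49 for Acly, -2.90 for Acss2, -2.56 for Hspa4l, 2.08 for Sertad1 and -2.53 for Rnf125. Without TAN 8 PM replicates 1 and 2 only that of Nr1d1 passed, among all genes tested. Against the libraries labelled 4 PM and 8 PM it was 3.67 for Nr1d1, 7.31 for Npas2, -1.81 for Etfbkmt, -2.12 for Fkbp5 and 1.81 for Grk5. Here Nr1d1 and Npas2 were no longer called without TAN 8 PM replicates 1 and 2. Their differences were then 3.05 ± 0.84 and 7.30 ± 2.12 (edgeR adjusted p = 0.298 and 0.343).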

How the results depend on the processing

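Counts are given as genes higher, lower, higher with a log2 fold change above 1 and lower with one below -1, which were 2, 1, 1 and 1 in the main test. They were 0, 0, 0 and 0 without a filter on low counts and in the fit of the 24 TAN libraries, 9, 20, 5 and 19 by DESeq2, 6, 3, 4 and 3 with the lymphocyte covariate and 6, 2, 3 and 2 with the share of counts on genes of the annotation's TEC biotype as a covariate. With limma voom 0 genes were lower. In the fit of the 8 libraries they were 229, 171, 51 and 68, with RLE scaling there 225, 188, 49 and 70, by DESeq2 there 473, 476, 83 and 128, and at an unadjusted p under 0.05 in the fit of 48 they were 293, 246, 83 and 136. Leaving out 1 library gave 0 to 1 for each count in the fit of 48, with 1 higher only without 8 AM replicate 4 or 4 AM replicate 4, and 110 to 240, 86 to 270, 29 to 74 and 41 to 139 in the fit of 8.

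The difference from the ad-lib change (0 genes) gave 9 genes by DESeq2, 469 at an unadjusted p and 0 to 0 without 1 library. The difference from the first meal (81 genes) gave 48 without a filter, 130 with the strict filter, 652 by DESeq2, 441 by voom, 0 in the separate fit, 6 in the TAN fit, 124 and 285 with the lymphocyte and TEC covariates, 3695 at an unadjusted p, 12 to 53 without 1 library and 1 without TAN 8 PM replicates 1 and 2. The difference from the libraries labelled 4 PM and 8 PM (35 genes) gave 18 without a filter, 959 by DESeq2, 251 by voom, 0 in the separate fit, 11 in the TAN fit, 4258 at an unadjusted p, 3 to 19 without 1 library and 7 without TAN 8 PM replicates 1 and 2. The causes were not tested.

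With the replicate block 1 gene was higher and 1 lower. The numbers do not pair the samples, as same-numbered libraries had residual correlations of -0.465 to -0.0933 over 5000 genes and 0 of the 8 AM libraries correlated best with its own number. Of 2579 recomputed values of named genes, 109 moved past the threshold and 29 lost it. The sign changed in 9 values of 3 genes (Per1, Hlf and Usp2), whose log2 fold change in the main test was smaller than its SE and which were called in neither fit. Genes under the count filter were not tested.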
